A study of Homo sapiens with 6 samples.

Results

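Clone-named transcripts, antisense transcripts and ribosomal protein pseudogenes carried 44 of the 542 m5C sites listed across a polysome gradient, in 40 of 501 genes. A site was taken as a member when its gene had a clone-based name (RP11-, CTD-, AC and similar), a name ending in AS and a number, a LINC or SNHG name, or the name of a ribosomal protein pseudogene. Of the 44 sites, 29 in 27 genes had a clone-based name, 5 in 5 genes an antisense name and 10 in 8 genes a ribosomal protein pseudogene name, while LINC and SNHG names had 0 sites. All RNA came from wild-type HEK293T cells, an established line of human embryonic kidney origin, lysed in a buffer with cycloheximide, which stalls ribosomes on mRNA. The lysate was spread over a sucrose gradient and pooled into 6 fractions. From the top these were free RNA, the zones of the small and of the large ribosomal subunit, single ribosomes (monosomes), and polysomes in a light pool with 2 to 5 ribosomes and a heavy pool with over 5. Poly(A) RNA of each fraction was bisulfite-converted and sequenced as 1 library, so that each comparison below is between libraries and has no replicate check. The m5C level of a site is the percentage of C among reads with C or T, since unmethylated cytosine is converted and read as T.

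A processed pseudogene is a copy of an mRNA that was reverse transcribed and inserted elsewhere in the genome, without introns. Highly expressed genes, those of ribosomal proteins among them, have left many such copies, and the letters of a copy can remain nearly those of its mRNA. Antisense and other long non-coding RNAs (lncRNAs) are transcribed and often spliced and polyadenylated as mRNAs are, but are not known to encode proteins. In mRNA, NSUN6 methylates cytosines followed by UCCA (Type II sites), and NSUN2 methylates cytosines in a G-rich context (Type I sites).

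The names covered 3 kinds of transcript. In GENCODE release 44 on GRCh37, which matched 43 of the 44 sites, 30 sites in 26 genes lay in processed pseudogenes, 9 sites in 9 genes in lncRNAs and 4 sites in 4 genes in protein-coding genes. The clone-named genes were 18 processed pseudogenes, 4 lncRNAs, 4 protein-coding genes and AC007405.6, which was not matched and lies in the ERICH2 locus. The 4 protein-coding genes were AC006486.9 (5′UTR), RP4-583P15.15 (3′UTR), RP11-529K1.3 (coding sequence) and RP11-73M18.2 (coding sequence), so the label of a non-coding transcript did not hold for them. Other genes on the same strand cover these 4 sites. They include ERF for AC006486.9, LIME1 for RP4-583P15.15, DDX19B for RP11-529K1.3, and COA8 and KLC1 for RP11-73M18.2. Which gene the reads came from was not tested. All 30 pseudogene sites were in genes of 1 exon, and the closest protein-coding transcript of another gene was a ribosomal protein mRNA for 30 of 30, with RPS2 in 14 of them. For the 10 sites with a ribosomal protein pseudogene name this was largely fixed by the name rule. The rest of the 30 were clone-named. For comparison, protein-coding genes held 475 of the 498 other sites.

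The windows below, 21 bases centred on the site and given 5′ to 3′ in DNA letters of GRCh37, were chosen after the values were seen because the results turn on them. The first set is shown because pseudogene and mRNA have the same letters, or differ by 1, around the methylated C, which is in capitals. RPS2P5 stands at chr12:118683952 on the plus strand and RPS2, coding exon 2, at chr16:2014563 on the minus strand. RPS3P6 is at chr12:62415535 (minus) and RPS3, exon 6, at chr11:75115721 (plus). RP11-69L16.5 is at chr6:7339258 (minus). AC092933.3, now RPS29P3, is at chr3:196263495 (plus) and RPS29, exon 2, at chr14:50052737 (minus). RP11-506B6.3, now RPSAP45, is at chr6:112677695 (minus), RP11-182B22.2, now RPSAP21, at chr1:236983169 (plus) and RPSA, exon 3, at chr3:39450197 (plus).
RPS2P5 and RPS2: gatggggaacCgcggtggctt
RPS3P6 and RPS3: acagggtgtgCtgggcatcaa
RP11-69L16.5: acagagtgtgCtgggcatcaa
AC092933.3 and RPS29: acggtctgatCcggaaatatg
RP11-506B6.3 and RPSA: gtgttatatcCtccaggaata
RP11-182B22.2: gtgtcatatcCtccaggaata

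The RPS2 window was found in 7 members: RPS2P5, RPS2P7, RPS2P46, RPS2P55, RP11-364L4.1, RP11-452G18.2 and RP3-337H4.6. The RPS29 window was found in 3 (AC092933.3, CTA-276O3.4 and RP11-40C6.2) and the RPS3 window in 2 (RPS3P6 and RP11-778D9.4). Counting positions from 1 at the 5′ end and giving the member's base first, RP11-69L16.5 differed from RPS3 by A5G and RP11-182B22.2 from RPSA by C5T. In the RPSA windows the methylated C is followed by TCCA, so these sites are Type II.

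The second set is shown because the pseudogene has C where the aligned base of its mRNA, in capitals, is another base. Each pair gives the pseudogene first and its closest mRNA second.
RP11-212P7.1: tgaaggaacaCtttgcctgga
RPS10: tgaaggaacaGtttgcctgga
RP11-570G20.1: cagtccacaaCcacagggaga
RPL15: cagtccacaaGcacagggaga
CTD-3035D6.1: ttcttgaacaCacagaaggat
RPS18: ttcttgaacaGacagaaggat
RPS2P1: ccaagaagctCctcatgatgg
RPS2: ctaagaagctGctcatgatgg

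The third set holds lncRNAs of the polysome libraries and the antisense gene with the highest summed coverage (FOXN3-AS1). RP11-54O7.3, now LINC02593, is at chr1:854196 (minus) in a single exon. HOXD-AS2 is at chr2:177001523 (minus) in exon 1 of 4, opposite HOXD3. PXN-AS1 is at chr12:120650755 (plus) in exon 4 of 4, opposite PXN. AC091729.9, now ZFAND2A-DT, is at chr7:1200188 (plus) in exon 1 of 3, opposite ZFAND2A. FOXN3-AS1 is at chr14:89884095 (plus) in exon 1 of 2, opposite FOXN3.
RP11-54O7.3: aggtcagtctCaggagacagt
HOXD-AS2: actcggcgccCagggcccctt
PXN-AS1: gattcatacaCaggtctgact
AC091729.9: gcctcccgccCcgggcacccg
FOXN3-AS1: ataggaccccCagggccttcc

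Type II sites made up 4 of 44 members (9.09%) and 186 of 498 other sites (37.3%). Type I sites with 2 or more G among the next 3 bases were 25 of 44 (56.8%) and 198 of 498 (39.8%). Another exact match of the 21-base window elsewhere in the genome was found for 21 of 44 members (47.7%) and for 69 of 498 other sites (13.9%). After conversion of C to T, the form in which the reads were aligned, the counts were 37 of 44 (84.1%) and 366 of 498 (73.5%). Another gene on the same strand covered 15 of the 44 (34.1%) against 51 of 498 (10.2%). For such members the window alone does not say which locus a read came from, and how reads with several equal alignments were placed bears on their coverage. Per the methods the reads were paired and longer than the window, so a match of 21 bases does not by itself give a read several alignments. How many reads had several alignments was not analysed here. In the 14 members outside processed pseudogenes, 11 were G-rich Type I sites, 2 were Type II and 2 had another exact match.

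The member sites were listed mostly in free RNA. Of the sites listed in each library, members were 37 of 172 in free RNA (21.5%, exact Clopper-Pearson 95% interval 15.6 to 28.4%), 14 of 199 with the small subunit (7.04%, 3.90 to 11.5%) and 11 of 233 with the large subunit (4.72%, 2.38 to 8.29%). They were 8 of 177 in monosomes (4.52%, 1.97 to 8.71%), 8 of 216 in light polysomes (3.70%, 1.61 to 7.17%) and 2 of 225 in heavy polysomes (0.889%, 0.108 to 3.17%). The interval of the free library lay above those of the other 5. Without sites whose window has another exact match, the share was 13.3% in free RNA, 3.16% with the small subunit, 1.63% with the large subunit, 1.43% in monosomes, 3.21% in light polysomes and 0.503% in heavy polysomes. Of the 44 members, 26 were listed in 1 library, which was the free library for 21, whereas 242 of the 498 other sites were listed in 1 library and 37 of these in the free library. A polysome library listed 8 of the 44 members (18.2%) and 301 of the 498 other sites (60.4%).

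**Figure D1:**
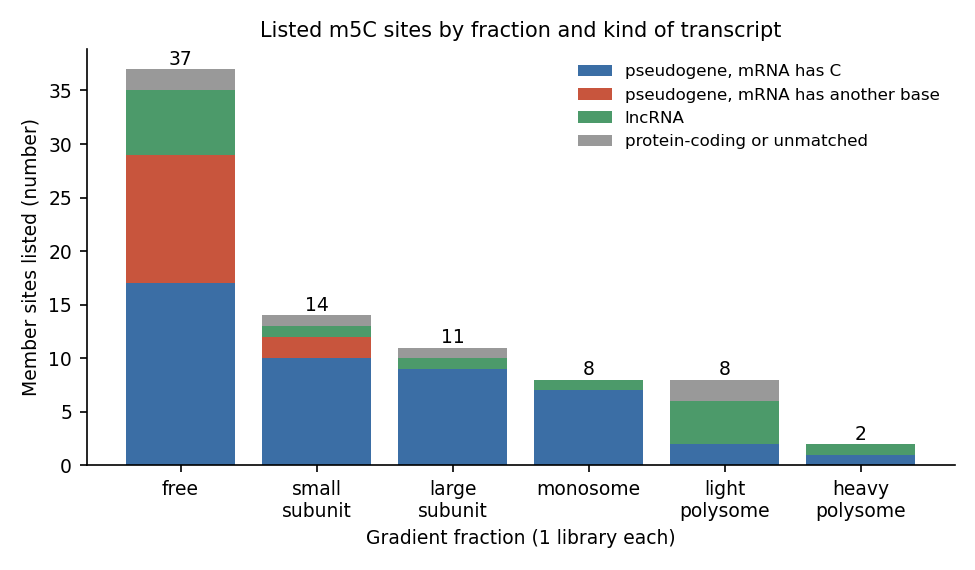
Number of member sites listed (vertical axis) in each of the 6 gradient fractions, 1 library each, stacked by kind: processed pseudogenes whose closest mRNA has C at the aligned base, those whose mRNA has another base, lncRNAs, and protein-coding or unmatched genes. The bars fall from 37 sites in free RNA to 2 in heavy polysomes, and the 12 sites with another base in the mRNA stand only in the bars of free RNA and the small subunit.

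The summed coverage of listed sites moved with this order. It was 764521 reads in the free library and 377637, 189137, 156825, 75927 and 50416 in the following libraries from the small subunit to heavy polysomes. This sum is not a measure of library depth, since a few abundant RNAs weigh on it. In the free library RPS29 had 225979 reads and the mitochondrial ribosomal RNA MT-RNR1 had 198440. The median coverage of a listed site was 75 reads in the free library, 69 with the small subunit and 68 in each later library. The number of other sites did not fall with the sum, being 135 in the free library and 223 in heavy polysomes. The part of depth in the members' share was not tested. Each list holds called sites only, with a lowest coverage of 20 reads and a lowest level of 10%. A member missing from a library may thus have had too few reads, a low level or no expression there. It may also have failed another of the authors' filters, such as those on conversion-resistant genes and on a binomial p-value. A lower abundance of a transcript in a fraction and a lower m5C level cannot be told apart from a missing entry. Intervals on the level of a single site and on shares cover counting error only, as no molecular identifiers were described. Those of medians reflect the spread between sites. Intervals of shares and of medians take sites as independent, although 7 members have the RPS2 window, 3 the RPS29 window and 2 the RPS3 window.

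Coverage of the members was 31823 reads in free RNA (4.16% of the listed reads), 12628 with the small subunit (3.34%), 4561 with the large subunit (2.41%), 8755 in monosomes (5.58%), 1571 in light polysomes (2.07%) and 559 in heavy polysomes (1.11%). RPS2P5 alone held from 47.3% of the members' reads, in monosomes, to 94.99%, in heavy polysomes. The median coverage of a member site was 62 reads in free RNA, 119 with the small subunit, 90 with the large subunit, 333 in monosomes and 41.5 in light polysomes, beside medians of 66.5 to 77 reads at other sites of these libraries.

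The median m5C level of the members was 23.3% in free RNA (95% order-statistic interval 16.3 to 34.3%) beside 18.5% for the other sites (16.3 to 20.9%). The order turned when the reads of all sites were pooled, with 14.4% for the members and 31.1% for the other sites. Such pooling gives most weight to a few sites, and RPS2P5 held 56.4% of the members' reads in this library. Among the other sites RPS29 was at 13.5% of 225979 reads and RPS3 at 11.1% of 114888. MT-RNR1 was at 56.4% of 198440 reads and RPSA at 62.9% of 78676. At 50 or more reads the members' median was 16.3%. The free-library members joined 12 pseudogene sites whose mRNA does not have C at the aligned base, with a median of 56.1%, 17 whose mRNA has C, with a median of 15.4%, and the members outside pseudogenes. The members' median was 15.3% with the small subunit, 13.2% with the large subunit, 15.03% in monosomes and 16.4% in light polysomes. Medians of the other sites of these libraries were 17.1 to 19.1%. In heavy polysomes the 2 members stood at 10.5% and 78.6%. The intervals of members and other sites overlapped in each of the 5 libraries with more than 2 members. The overlap was least with the large subunit, with 10.5 to 16.3% for the members and 15.4 to 19.8% for the other sites. A difference between the medians was not tested, and an overlap does not show that they were equal.

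**Figure D2:**
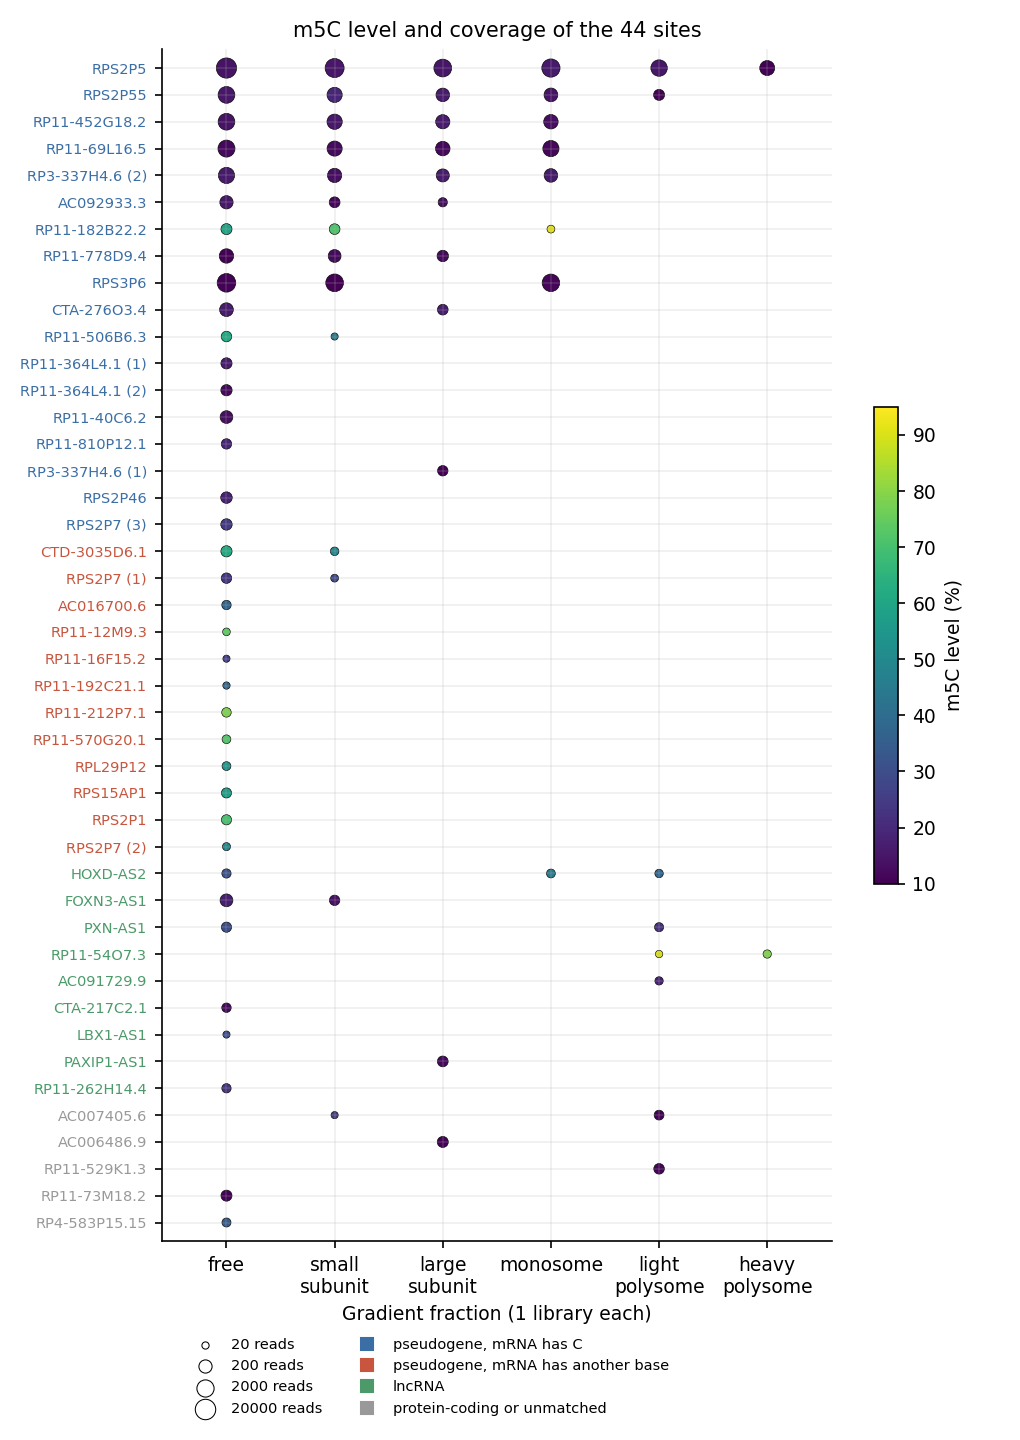
Each of the 44 sites (rows, genes with several sites numbered by position) in the 6 libraries (columns). A dot is drawn where the site was listed, its colour gives the m5C level in % and its area grows with the log of the coverage in reads. RPS2P5 is the one site with a dot in all 6 columns, and 26 of the 44 rows have a single dot, which is in the free library for 21.

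RPS2P5 (ENSG00000240342), a single-exon copy of RPS2, was the one member listed in all 6 libraries. RPS2 encodes a protein of the small ribosomal subunit. The RPS2P5 level was 14.0% of 17934 reads in free RNA, 15.1% of 7164 with the small subunit, 14.7% of 2982 with the large subunit, 15.8% of 4140 in monosomes, 15.02% of 1272 in light polysomes and 10.5% of 531 in heavy polysomes. The heavy polysome library stood lowest, and the other 5 lay between 14.0 and 15.8%. RPS2P55 (ENSG00000216866, chrX:40795053, minus) stood at 15.2% of 1558 reads in free RNA, 19.02% of 594 with the small subunit, 16.3% of 246 with the large subunit, 14.3% of 272 in monosomes and 10.7% of 75 in light polysomes. It was not listed in heavy polysomes.

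RP11-452G18.2 (chr11:17249880, plus, inside NUCB2) and the RPS2-window site of RP3-337H4.6 (chr6:43507377, minus, inside XPO5) were listed in the 4 libraries from free RNA to monosomes. Levels of the former were 14.2%, 15.6%, 16.1% and 13.2% on 1503, 617, 341 and 394 reads. Those of the latter were 15.9%, 13.3%, 16.2% and 15.7% on 1089, 353, 191 and 248 reads, so both stayed between 13.2 and 16.2%. RP3-337H4.6 had a second site at chr6:43507026, listed with the large subunit alone at 10.0% of 60 reads. RP11-364L4.1 had adjacent sites at chr4:144271207 (16.3% of 80 reads, the RPS2 window) and chr4:144271208 (11.9% of 84 reads), both in free RNA alone.

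The copies of RPS3, another small-subunit protein that also acts in DNA repair, had lower levels. RP11-69L16.5, the clone-named gene with the highest summed coverage, was at 11.7% of 1838 reads in free RNA, 12.3% of 576 with the small subunit, 11.9% of 403 with the large subunit and 11.6% of 1088 in monosomes. RPS3P6 was at 10.5% of 5372, 10.1% of 2868 and 11.2% of 2556 reads in free RNA, small subunit and monosomes. RP11-778D9.4, now RPS3P3 (chr3:183868035, plus), was at 10.4% of 385, 12.4% of 169 and 12.2% of 90 reads in free RNA and the 2 subunit libraries. The RPS3 copies thus lay between 10.1 and 12.4%, close to the 10% minimum of the lists. AC092933.3, a copy of RPS29, was at 15.4% of 214, 11.6% of 69 and 13.2% of 38 reads in the same 3 libraries.

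The RPSA copies stood apart in level. RPSA encodes a small-subunit protein that is also known as a laminin receptor. RP11-182B22.2, the clone-named member with the highest level at 50 or more reads, was at 59.2% of 76 reads in free RNA, 71.2% of 66 with the small subunit and 91.7% of 24 in monosomes. RP11-506B6.3 was at 61.3% of 62 reads in free RNA and 45.0% of 20 with the small subunit. Both have the Type II motif, as does the RPSA site, which was at 62.9% of 78676 reads in free RNA and 74.3% of 15321 in monosomes.

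Levels at the pseudogene sites were next compared with the aligned site of the mRNA in the same library, a comparison chosen after the values were seen. For 15 member sites, copies of RPS2, RPS3, RPS29 or RPSA, the aligned C of the mRNA was listed in the same library, which gave 43 comparisons. Both levels of each pair had thus passed the minimum level of the lists, and a copy below it could not enter. RPS3P6, for example, was not listed with the large subunit, where RPS3 was at 10.9% of 29370 reads, close to that minimum. Why RPS3P6 was missing there, and how far this selection narrowed the differences, was not tested. Fisher's exact test was applied to the C reads and T reads of each pair and adjusted (Benjamini-Hochberg) over all 53 such pairs of copy and mRNA, of which 1.89% were called. Of the 43, 1 was called, 4 had an unadjusted p under 0.05, and 39 of the 43 intervals of the difference held 0. The median absolute difference was 1.19 percentage points, and the copy was the higher in 24 and the lower in 19. The called pair was RPS2P5 in free RNA, at 14.0% beside 15.1% for RPS2, a difference of -1.07 percentage points (95% interval -1.70 to -0.444, adjusted p = 0.0459 by the exact test). In light polysomes RPS2P5 stood at 15.02% and RPS2 at 11.8%, a difference of 3.19 points (0.840 to 5.63, adjusted p = 0.112 by the exact test), opposite in sign.

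The intervals were wide where coverage was low: RP11-506B6.3 with the small subunit differed from RPSA by -18.2 points on 20 reads, with an interval of -37.4 to 2.56 points. RP11-182B22.2 in monosomes was 17.3 points above RPSA on 24 reads, with an interval of -0.211 to 23.4. A miss of the threshold does not show that copy and mRNA had one level. Coverage of RPS2P5 was from 48.8% (free RNA) to 69.7% (heavy polysomes) of that of RPS2. For RPS3 copies the same share was from 0.280 to 5.61%, for RPS29 copies from 0.0712 to 0.1998% and for RPSA copies from 0.0395 to 0.157%. Over the 101 bases around the site, RPS2P5 and RPS2 had 99 identical bases, and in the window printed above they had no difference. Whether reads of the mRNA were placed on the copies was not tested.

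**Figure D3:**
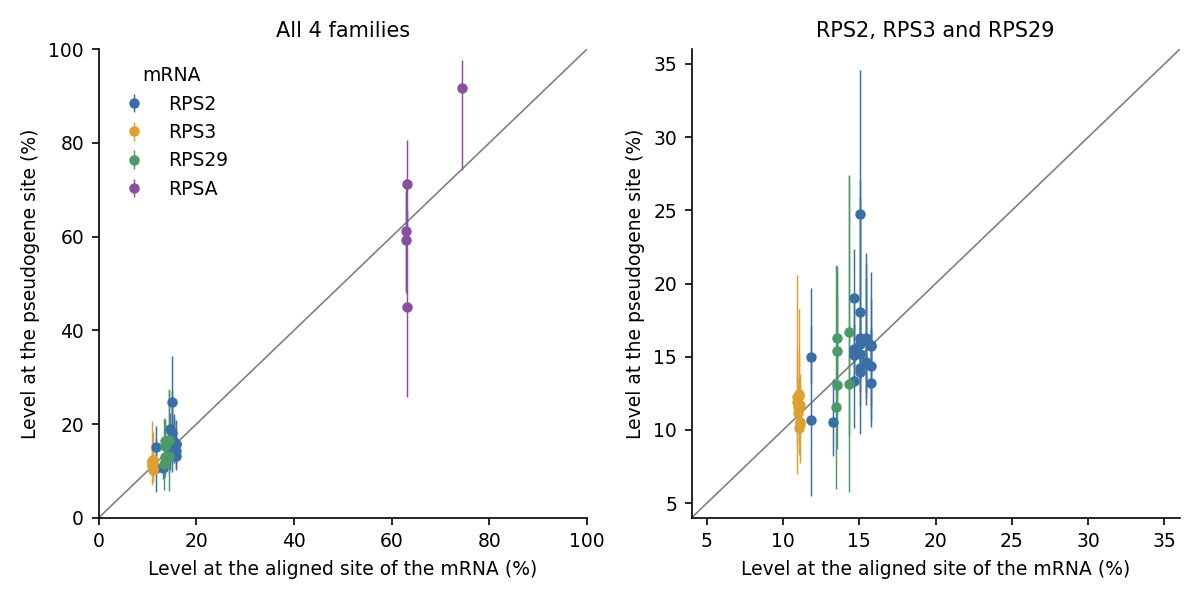
m5C level in % at the pseudogene site (vertical axis) against the level at the aligned site of its mRNA in the same library (horizontal axis), for 43 pairs, all on the left and those of RPS2, RPS3 and RPS29 enlarged on the right. Bars are 95% Wilson intervals of the pseudogene level, the grey line marks equal levels, and 39 of the 43 intervals of the difference held 0. Only pairs with both sites listed are drawn, so no level lies below the minimum level of the lists.

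In 12 of the 30 pseudogene sites the mRNA did not have C at the aligned base. It had G in 11 (C11G, position 11 being the site, with the pseudogene's base first) and A in 1 (C11A, in RPS2P7), and T in 0. All 12 were listed in free RNA, 2 also with the small subunit (CTD-3035D6.1 and a site of RPS2P7), and 0 elsewhere. Their free-library levels ran from 23.3 to 78.6% on 20 to 81 reads, and 8 of the 12 reached 50% in free RNA. Of these sites, 0 were G-rich Type I, 0 were Type II and 2 had another exact match, whereas of the 18 sites with C in the mRNA, 14 were G-rich Type I, 2 were Type II and 17 had another exact match.

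The highest of the 12 was RP11-212P7.1 (chr7:128210559, minus), a copy of RPS10, at 78.6% of 42 reads (Wilson 95% interval 64.1 to 88.3%). RP11-12M9.3, a copy of RPS9, was at 73.9% of 23 reads, RP11-570G20.1 (RPL15P14) at 71.9% of 32 and RPS2P1 (chr20:32710854, plus) at 70.4% of 54, the highest level at 50 or more reads among the named ribosomal protein pseudogenes. CTD-3035D6.1 (chr14:91233131, plus), a copy of RPS18, was at 61.7% of 81 reads in free RNA and 50.0% of 30 with the small subunit. RPS15AP1 was at 57.7% of 52 reads and RPL29P12 at 54.5% of 33. These 12 sites, grouped after their values were seen, were thus low in coverage and mostly high in level.

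RPS2P7 (ENSG00000235508) held both kinds of site, on the minus strand of chromosome 20. Its site with the RPS2 window, at chr20:44269946, was at 24.7% of 89 reads in free RNA. Its C11G site at chr20:44269497 was at 50.0% of 26 reads, and its C11A site at chr20:44269256 was at 23.3% of 60 reads in free RNA and 29.2% of 24 with the small subunit. RPS2 had no listed site aligned to the last 2, where its transcript has G and A.

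The coverage of the files counts C and T reads only. Reads with the G or A that the mRNA has at such a base would be in neither count, and their number was not analysed here. The part of mRNA reads in these calls was not tested. Among 11 sites in pseudogenes or unmatched genes outside the name rule that had a closest mRNA, 8 had C in the mRNA and 3 had G (RPSAP58, RPSAP15 and EEF1A1P13).

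**Figure D4:**
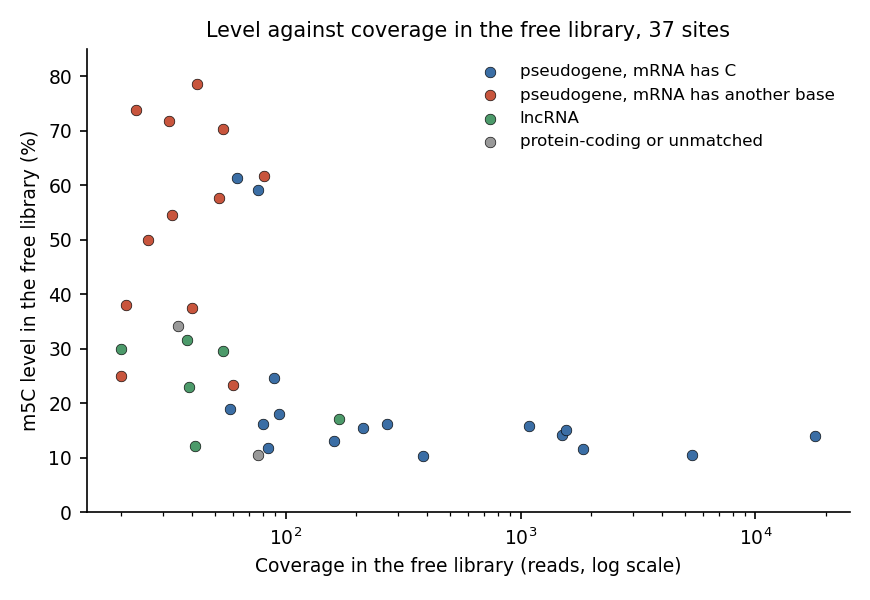
m5C level in % (vertical axis) against coverage in reads (horizontal axis, log scale) for the 37 member sites listed in the free library, coloured by kind. The 12 pseudogene sites whose mRNA has another base lie at 20 to 81 reads and 23.3 to 78.6%, while the 17 sites whose mRNA has C reach 17934 reads and, apart from the 2 RPSA copies at 59.2 and 61.3%, stand at 24.7% or less.

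A polysome library listed 8 member genes, all in light polysomes and 2 of them (RPS2P5 and RP11-54O7.3) in heavy polysomes as well. They were 2 of the 30 pseudogene sites (RPS2P5 and RPS2P55) and 6 of the 14 others. RP11-54O7.3, an lncRNA, was listed in polysomes alone, with 90.5% of 21 reads in light polysomes (Wilson 95% interval 71.1 to 97.3%) and 78.6% of 28 in heavy polysomes (60.5 to 89.8%). The levels overlapped within counting error (difference 11.9 points, -10.5 to 31.3, adjusted p = 0.814 by Fisher's exact test). The other lncRNA members of the polysome libraries lay opposite coding genes. HOXD-AS2 was at 31.6% of 38 reads in free RNA, 45.5% of 33 in monosomes and 37.9% of 29 in light polysomes. PXN-AS1, the antisense gene with the highest level at 50 or more reads, was at 29.6% of 54 reads in free RNA and 22.2% of 36 in light polysomes. AC091729.9 was listed in light polysomes alone, at 17.9% of 28 reads.

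The 2 remaining polysome genes were not lncRNAs in the annotation. AC007405.6 (chr2:171627832, plus) was at 25.0% of 20 reads with the small subunit and 10.6% of 47 in light polysomes. RP11-529K1.3 (chr16:70349955, plus, coding exon 4 of 8, overlapping DDX19B) was at 11.1% of 63 reads in light polysomes. With overlapping genes of the same strand such as DDX19B left out of the search, its closest other transcript was that of the helicase paralogue DDX19A. The aligned site of DDX19A was listed with the large subunit alone, at 40.9% of 22 reads. RP11-529K1.3 and DDX19A thus had no library in common. FOXN3-AS1 was not listed in polysomes: it was at 17.2% of 169 reads in free RNA and 13.8% of 58 with the small subunit.

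**Figure D5:**
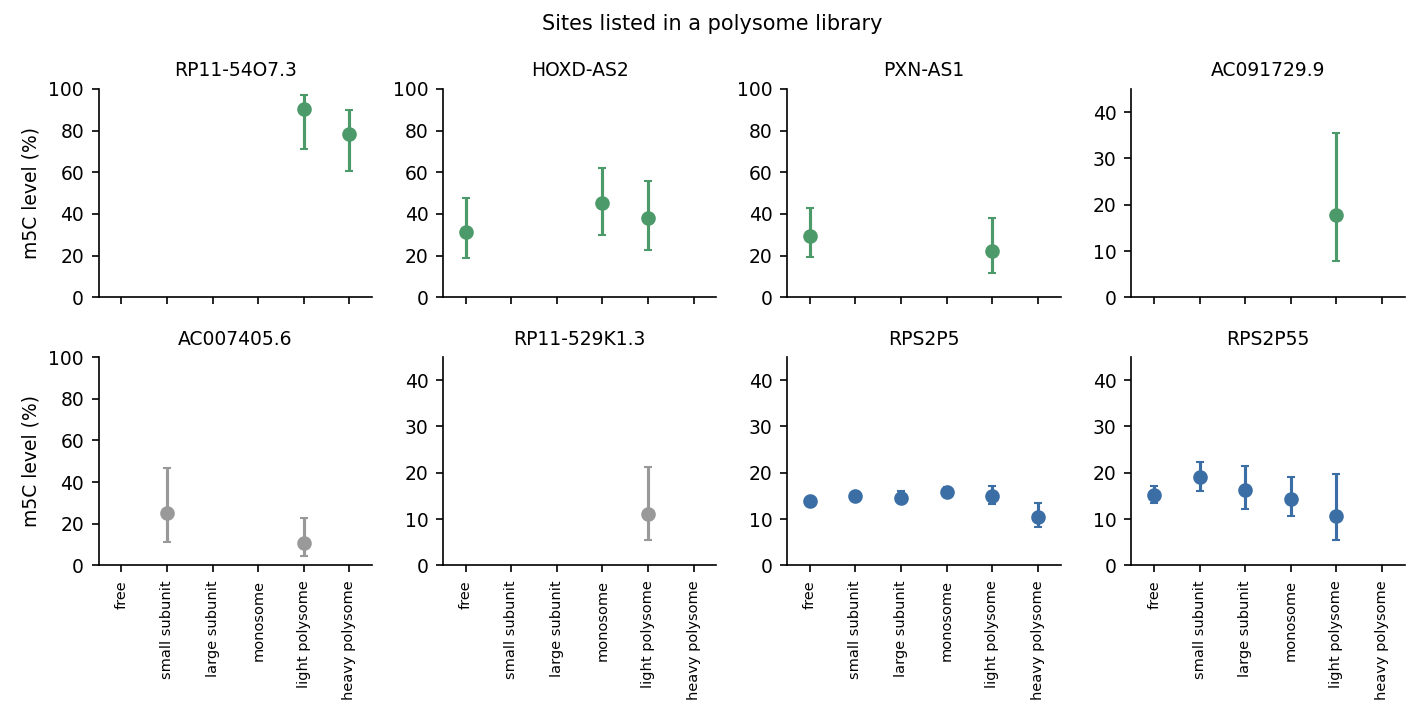
m5C level in % (vertical axes) of the 8 member sites listed in a polysome library, 1 panel each, in the libraries that listed them (horizontal axes). Points are levels and bars 95% Wilson intervals, with vertical scales to 100% or 45%; RPS2P5 has the narrowest bars and RP11-54O7.3 the highest points.

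Between libraries, member levels were compared by Fisher's exact test at each site listed in both, with adjustment over all sites of the pair. Over the 15 pairs of libraries 66 member comparisons could be made, of which 4 were called and 9 had an unadjusted p under 0.05, beside 8.46% called of 1454 comparisons over all sites. Of the 4, 3 were of RPS2P5. It was lower in free RNA (14.0%) than in monosomes (15.8%), by -1.79 points (-3.03 to -0.593, adjusted p = 0.0359 by the exact test, 9.46% of all sites called). It was higher in monosomes than in heavy polysomes (10.5%) by 5.23 points (2.13 to 7.83, adjusted p = 0.0103 by the exact test, 20.0% of all sites called). It was also higher with the small subunit (15.1%) than in heavy polysomes by 4.54 points (1.53 to 7.03, adjusted p = 0.0214 by the exact test, 21.2% of all sites called). The last 2 tests share the heavy polysome library and its 531 reads at this site. RPS2, which has the same window, was at 15.1% in free RNA, 14.6% with the small subunit, 15.8% in monosomes and 13.3% of 762 reads in heavy polysomes. Its lowest level was in light polysomes, at 11.8% of 2131 reads. Whether the 3 calls are particular to the RPS2P5 transcript was not tested.

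The fourth call was RP11-182B22.2, at 59.2% in free RNA and 91.7% in monosomes (-32.5 points, -45.2 to -12.1, adjusted p = 0.0332 by the exact test). RPSA, whose window differs from it by 1 base, also stood higher in monosomes, as given above. No comparison of HOXD-AS2, PXN-AS1, AC007405.6 or RPS2P55 was called; for HOXD-AS2 between free RNA and light polysomes the interval of the difference was -28.3 to 15.7 points, and for PXN-AS1 it was -11.6 to 24.3 points. Pair by pair, the number of members called was 0 in the other 12 pairs of libraries. Free RNA was set against the small subunit with 13 members tested and 2.2% of all sites called, against the large subunit with 8 and 4.29%, against light polysomes with 4 and 11.1% and against heavy polysomes with 1 and 15.7%. The small subunit was set against the large subunit with 7 members tested and 2.65% of all sites called, against monosomes with 7 and 4.5% and against light polysomes with 3 and 8.57%. The large subunit was set against monosomes with 5 members and 4.0%, against light polysomes with 2 and 9.45% and against heavy polysomes with 1 and 10.7%. Monosomes against light polysomes had 3 members tested and 8.57% of all sites called, and light against heavy polysomes had 2 and 3.79%. So few members were tested in the polysome pairs that a count of 0 says little there; by unadjusted p under 0.05, 1 member passed in free RNA, in the large subunit and in light polysomes against heavy polysomes, each time RPS2P5, and RPS2P5 and RPS2P55 passed between free RNA and the small subunit. With 1 library per fraction, the calls compare the 2 libraries and not the fractions.

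The genes that the named pseudogenes derive from were RPS2, RPS3, RPS15A and RPL29. Of these 4, 3 were listed: RPS2 with 1 site in 6 libraries, RPS3 with 1 site in 4 and RPS15A with 2 sites. RPL29, a protein of the large subunit, had 0 listed sites, while its copy RPL29P12 had 1, at a base where the mRNA has G.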

How the data were processed

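The deposited lists cover 6 poly(A) RNA bisulfite libraries of HEK293T cells, 1 per gradient fraction. Per the methods and the submitters' processing notes, the authors trimmed reads with cutadapt 1.13 and Trimmomatic 0.36, aligned them strand-aware to the converted GRCh37 genome with HISAT2, and aligned unmapped and multiply mapped reads to the converted transcriptome with Bowtie2 2.2.9, where a read may have several alignments. The authors deposited coverage as read counts (C or T, not scaled), the m5C level as a fraction and a binomial p-value, which was not used here. Reads with C were level times coverage, whole in 1222 of 1222 listings.

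Members and gene lists were chosen with earlier results of these data known. Sites were placed on GRCh37 and GENCODE release 44 with pysam 0.24.0, and 21-base windows were searched over both strands of the genome. Up to 101 spliced bases around each site were aligned by blastn 2.17.0 to protein-coding transcripts of other genes (85% identity or more over 80% or more). Genes that cover the site on the same strand were left out of this search. Fisher's exact test (scipy 1.17.1), two-sided, was adjusted by Benjamini-Hochberg over all sites of a pair of libraries, with a threshold of 0.05, and was tested on simulated data. The comparison of pseudogenes with mRNAs and the grouping by the mRNA's base were added after the values were seen. Genes were named if listed in polysomes, in 3 or more libraries or with 2 or more sites, or if highest in their name class in summed coverage or in level at 50 or more reads; others named were chosen after their values were seen. Alternatives were a coverage of 50, a level of 20%, pooled reads, 1 site per gene, other multiple-test families, summed fractions, and leaving out windows with other matches, protein-coding members, mitochondrial sites or the member with most reads. Coverage of listed sites is given in place of depth, since library totals were not used here.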

Additional observations from a re-analysis of the deposited data

How the results depend on the processing

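Under other choices of processing 64 values stayed within 1.5 times or their interval and 19 moved. Where few members gave a wide interval, a value could hardly move, so the count of 64 is not a measure of stability. The heavy polysome median of 44.6%, whose interval is the range of its 2 members, counted as unmoved at 10.5% and at 78.6%. In monosomes the median of 15.03% counted as unmoved at 28.5%. Without windows that have another exact genome match, the members' share of listed sites was 13.3% in free RNA, 3.16% with the small subunit, 1.63% with the large subunit and 1.43% in monosomes; with a level of 20% or more it was 0 with the large subunit. Pooling reads gave a free-library level of 14.4%. Without mitochondrial sites the members' share of reads was 5.62%, 4.67%, 3.01%, 6.02% and 2.42% from free RNA to light polysomes. Without RPS2P5, the member with most reads, it was 1.86%, 1.47%, 0.848%, 3.02%, 0.401% and 0.0561% in the 6 libraries. Of the called comparisons between libraries, 0 were left among the 15 still testable without windows that have another match, which removes RPS2P5 and RP11-182B22.2. When the free and subunit libraries were summed against the polysomes, 0 of 5 members were called, beside 26 of 178 over all sites. With so few members tested, these counts of 0 say little. The moved shares of reads follow from the sites left out, and the cause of the other moves was not tested. No paired analysis was possible because each fraction had 1 library. Members outside the RPS2 and RPS3 copies had at most 270 reads in a library; the part of depth in the calls was not tested.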

Other observations

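Of 25 names on a list made for well-known non-coding RNAs outside the rule, 3 were listed. The list also held OIP5, the name of a protein-coding gene. RPPH1, the RNA of RNase P, was at 39.9% of 7464 reads in free RNA, 39.2% of 699 with the small subunit and 41.7% of 96 with the large subunit, with overlapping Wilson intervals, and was not listed in monosomes or polysomes. SCARNA2, a Cajal body RNA, was at 23.7% of 59 reads in free RNA and 13.2% of 53 with the small subunit. MT-RNR1, the small mitochondrial ribosomal RNA, was at 56.4% of 198440 reads in free RNA, 59.7% of 107456 with the small subunit, 76.5% of 37555 with the large subunit, 83.7% of 11494 in monosomes, 83.6% of 11026 in light polysomes and 77.8% of 3407 in heavy polysomes. RPPH1 and SCARNA2 were thus listed in the free and subunit libraries alone, as were 5 of the 9 lncRNA members, while the other 4 were listed in a polysome library.

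Copies of EIF4B, which encodes a translation initiation factor, were listed outside the name rule. EIF4BP7 was at 23.5% of 34 reads in free RNA, 11.9% of 318 with the large subunit and 13.3% of 263 in monosomes, where EIF4B was at 17.1%, 12.04% and 12.4%. The intervals of these 3 differences held 0. EIF4BP6 (12.1% of 132 reads with the large subunit, 10.1% of 149 in monosomes) and EIF4BP3 (11.1% of 45 with the large subunit) also had intervals that held 0. Here too only pairs with both sites listed were compared, so a copy below the minimum level of the lists could not enter. All 3 copies were 100% identical to EIF4B over the aligned bases around the site. Whether reads of the mRNA were placed on them was not tested.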
